A study of Homo sapiens with 12 samples.

Results

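The 10 genes described here encode the Id proteins and parts of the bone morphogenetic protein (BMP) pathway that controls them: the ligand genes BMP2 and BMP4, the receptor genes BMPR1A and BMPR2, the inhibitor genes SMAD6 and BAMBI, and the target genes ID1, ID2, ID3 and ID4. They were chosen by gene symbol, 10 of the 19973 genes in the table. The choice was made with earlier results of these data known, so their counts beside those of all genes are a description. RNA was sequenced from H460 and A549, established human non-small cell lung cancer (NSCLC) lines, either left without treatment (control) or given ISP-I (isovalerylspiramycin I, a macrolide antibiotic) at 10 µM for 48 h. Each of the 4 groups had 3 libraries, and each line stands for a single tumor. The genotype label of both lines is wild type, while the study describes both as having lost KEAP1 function by homozygous mutation. Values are FPKM, that is fragments per gene divided by gene length and by the fragments on all genes of the library.

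BMPs are secreted factors that bind paired type I and type II receptor kinases on the cell surface. The active type I receptor phosphorylates SMAD1, SMAD5 and SMAD9, which join SMAD4 and bind the regulatory DNA of their targets, the ID genes and the feedback inhibitor SMAD6 among the most direct. Id proteins have no DNA-binding region of their own and hold E proteins, a class of helix-loop-helix transcription factors, away from DNA; they are best known from dividing, poorly differentiated cells.

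The libraries held 14225849 to 17874422 reads on genes. Of the epithelial markers EPCAM, CDH1, KRT8, KRT18 and KRT19, 3 (the keratins) averaged at least 1 FPKM in H460 and all 5 did in A549 controls, against 4 in A549 with ISP-I. CDH1 had no reads in H460 controls, and EPCAM averaged 0.0473 FPKM there. None of the 4 alveolar markers (NKX2-1, SFTPB, SFTPC, NAPSA), the 3 endothelial or the 4 blood markers averaged 1 FPKM in any group, and of the 5 fibroblast markers 1 did in H460 controls (COL1A1) and 1 in H460 with ISP-I (PDGFRB).

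The summed RNA of the Id genes was lower with ISP-I in both lines. The 4 Id genes together summed to 493.3 ± 45.3 FPKM (SD, n = 3) in H460 controls and 57.0 ± 17.5 FPKM with ISP-I, and to 392.7 ± 36.7 and 186.3 ± 12.5 FPKM in A549. ID1 fell in both lines, ID3 fell in H460 and did not pass the test in A549, and BMP2 rose in both. SMAD6 fell in A549 and was lower in H460, where it passed the filter only through its control libraries. BMP4 fell in A549, and BAMBI rose in H460 and fell in A549. In bulk RNA, fewer cells expressing a gene and less of its RNA per cell cannot be told apart.

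Differences are given on the log2(FPKM + 1) scale, which draws the changes of genes near or under 1 FPKM toward 0. They were tested with limma over every gene averaging 0.1 FPKM or more, with Benjamini-Hochberg adjusted p values. A call required more than a 2-fold difference together with an adjusted p below 0.05. "Rose" and "fell" are used where the adjusted p was under 0.05. In H460, 6 of 9 tested members were called, BMP2 and BAMBI higher and ID1, ID3, SMAD6 and BMPR1A lower. Of all 13423 genes tested there, 10.5% were called higher and 15.2% lower. SMAD6 passed the filter in H460 only through its control libraries. At any fold change, 2 members rose and 5 fell, where 27.6% of all genes rose and 41.5% fell, so that a fall at any fold is common in this line. In A549, 3 of 10 members were called, all lower (ID1, BMP4 and SMAD6), where 3.51% of all 13705 genes were called lower and 4.2% higher. At any fold change, 1 member rose and 6 fell in A549, where 30.5% of all genes rose and 27% fell. The median difference of the members was -0.49 in H460 and -0.52 in A549, beside -0.15 and 0.020 over all genes tested. With median-of-ratios scaling the median of all genes in H460 moved from -0.15 to 0.0069 and the share of called genes that were higher from 40.8% to 56.5%. No member changed direction under that scaling.

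**Figure D1:**
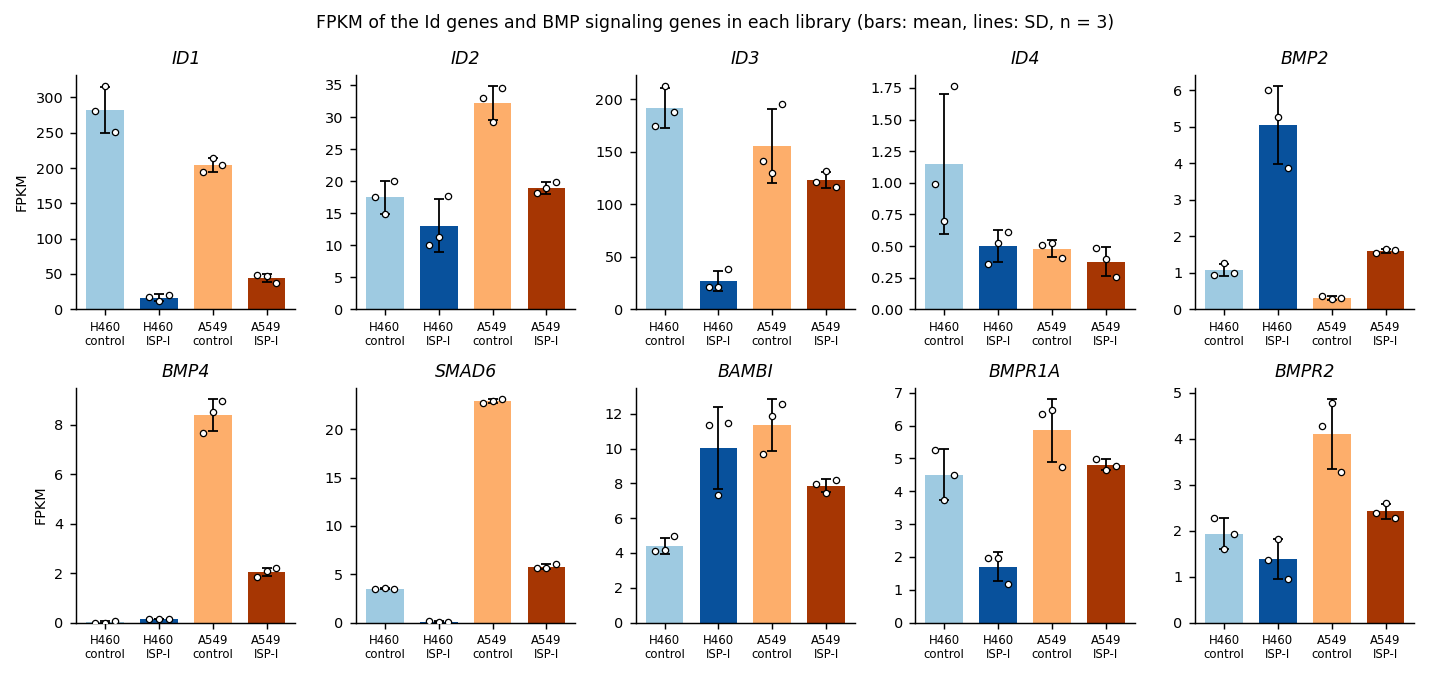
FPKM of each gene (vertical axis, linear, from 0, its own scale in each panel) in the 4 groups. Bars are means, lines are SD (n = 3) and points are libraries: ID1 and SMAD6 are lower with ISP-I in both lines, ID3 without overlap in H460 (191.8 to 26.9 FPKM), BAMBI moves in opposite directions (4.41 to 10.0 FPKM in H460, 11.4 to 7.87 FPKM in A549), and BMP4 is near 0 in H460.

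**Figure D2:**
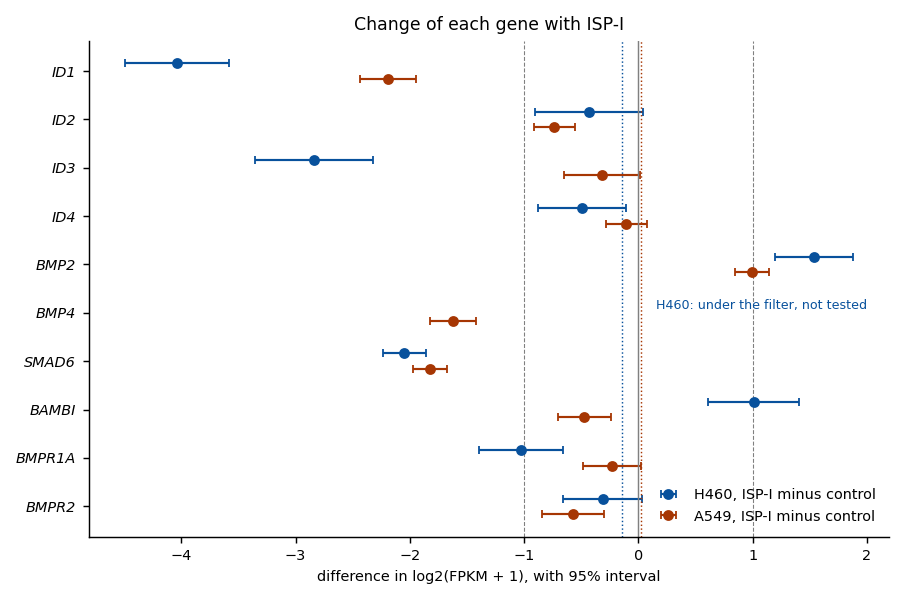
Difference in log2(FPKM + 1) between ISP-I and control libraries (horizontal axis) for each gene, with 95% intervals from limma, H460 in blue and A549 in brown. Dashed lines mark a fold change of 2 and dotted lines the median of all genes in each line (-0.15 and 0.020). ID1 lies at -4.04 in H460 and -2.19 in A549, and the intervals of ID3 and BAMBI do not overlap between the lines.

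BMP2 rose with ISP-I in both lines. Of the members BMP2 and BMP4, BMP2 stood higher in H460 controls and BMP4 in A549 controls, although BMP6, a ligand gene outside the 10, averaged 10.0 FPKM in H460 controls, above both. BMP2 (ENSG00000125845, chr20:6767686-6780246 in hg38, plus strand) encodes a secreted BMP that signals as a dimer. BMP2 stood at 0.941, 1.26 and 1.003 FPKM in the 3 H460 control libraries and at 5.997, 5.27 and 3.88 FPKM in the 3 ISP-I libraries. In A549 it stood at 0.357, 0.269 and 0.306 FPKM in controls and at 1.55, 1.65 and 1.61 FPKM with ISP-I. Control and ISP-I libraries did not overlap in either line, and the mean was 4.72 times the control mean in H460 and 5.17 times in A549. The log2 difference was 1.53 (SE 0.1501, adjusted p = 3.2e-05) in H460 and 0.99 (SE 0.0635, adjusted p = 7.98e-06) in A549, where the added 1 FPKM kept it just under a fold change of 2. It passed that fold in A549 with 0.1 FPKM added (2.06), with limma voom on the recovered reads (2.31), without control library 1 (1.02) and without ISP-I library 1 (1.01).

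BMP4 (ENSG00000125378, chr14:53949736-53958761, minus strand), a close relative of BMP2 that uses the same receptors, was almost silent in H460. It had 0, 0 and 3 reads in the H460 control libraries and 7 to 8 reads in each ISP-I library, 23 in all. The mean FPKM was 0.0217 in controls and 0.151 with ISP-I, a ratio of 6.95 with a 95% interval of 2.09 to 35.9 that covers counting error only, and the gene was under the filter for the H460 test. A549 controls held 7.67, 8.50 and 8.97 FPKM of BMP4, and A549 libraries with ISP-I held 1.86, 2.08 and 2.21 FPKM. BMP4 thus fell in A549 to a level 4.09 times lower, with no overlap of the groups (log2 difference -1.62, SE 0.0873, adjusted p = 3.51e-06). An lncRNA on the opposite strand shares exonic sequence with BMP4, and the strand setting of the counting was not stated.

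The balance between BMP2 and BMP4 shifted in A549. BMP2 and BMP4 together summed to 8.69 ± 0.625 FPKM in A549 controls and 3.65 ± 0.216 FPKM with ISP-I, and the part of BMP2 in that sum went from 3.601% to 43.99%. In H460 the sum went from 1.09 ± 0.162 to 5.198 ± 1.07 FPKM, and BMP2 held 98.0% of it before and 97.0% after treatment. The sum over both genes was therefore higher in A549 controls than in H460 controls and, with ISP-I, higher in every H460 library (4.03 to 6.14 FPKM) than in any A549 library (3.41 to 3.82 FPKM).

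**Figure D3:**
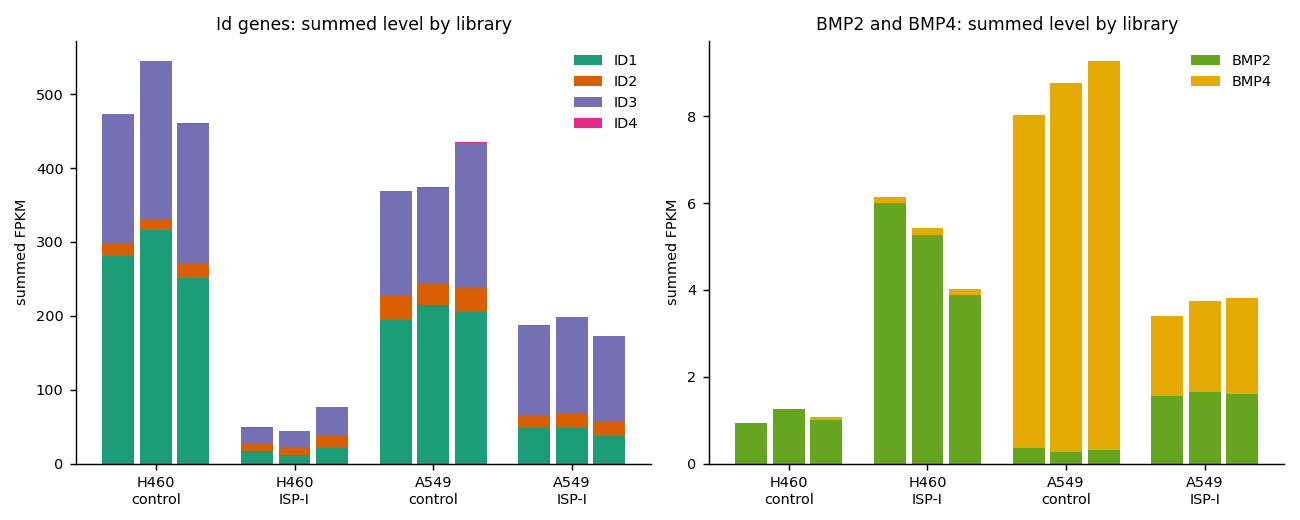
Summed FPKM in each library (vertical axis, linear) of the 4 Id genes (left) and of BMP2 and BMP4 (right), each bar a library and each color a gene. The Id sum falls from between 461.0 and 545.1 to between 44.8 and 77.0 FPKM in H460, and BMP4 makes up 96.4% of the ligand sum in A549 controls and 56.0% with ISP-I.

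Of the receptor genes, BMPR1A was lower with ISP-I in H460 and BMPR2 in A549. BMPR1A (ENSG00000107779, chr10:86756601-86932825, plus strand) encodes a type I receptor for BMP2 and BMP4. It stood at 5.27, 3.72 and 4.51 FPKM in H460 controls and at 1.96, 1.97 and 1.19 FPKM with ISP-I, with no overlap of the groups. The mean was 2.64 times lower (log2 difference -1.03, SE 0.162, adjusted p = 0.000538). The adjusted p stayed under 0.05 in each alternative run against no change, but the fold of 2 was lost without control library 1 (-0.93), without ISP-I library 3 (-0.88), with quantile normalization (-0.80) and with median-of-ratios scaling (-0.84). In A549, BMPR1A stood at 6.35, 6.46 and 4.75 FPKM in controls and at 4.98, 4.65 and 4.78 FPKM with ISP-I, and the groups overlapped (log2 difference -0.23, 95% interval -0.48 to 0.024, adjusted p = 0.107). Without control library 3, the lowest of the A549 controls, the difference was -0.35 (adjusted p = 0.000783). Pseudogenes named as copies of BMPR1A (BMPR1AP1 and BMPR1AP2) are listed among human genes, and reads could be split with these.

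BMPR2 (ENSG00000204217, chr2:202376327-202567751, plus strand) encodes the type II receptor that carries most BMP signals. In A549 it stood at 4.28, 4.77 and 3.28 FPKM in controls and at 2.38, 2.60 and 2.27 FPKM with ISP-I. The groups did not overlap, and BMPR2 fell by less than a fold of 2 (log2 difference -0.57, SE 0.117, adjusted p = 0.00362). In H460 it stood at 2.28, 1.60 and 1.94 FPKM in controls and at 1.37, 1.81 and 0.959 FPKM with ISP-I, groups that overlapped (log2 difference -0.31, 95% interval -0.66 to 0.033, adjusted p = 0.0945). Without ISP-I library 2 the H460 difference was -0.44 (adjusted p = 0.0216). A further protein-coding entry of GENCODE v44 on the same strand shares exons with BMPR2, so that reads of both cannot be told apart there.

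The inhibitor genes moved apart. SMAD6 (ENSG00000137834, chr15:66702236-66782849, plus strand) encodes an inhibitory SMAD that blocks BMP receptors and SMAD1 and is itself a target of the pathway. BAMBI (ENSG00000095739, chr10:28677510-28682932, plus strand) encodes a receptor-like membrane protein without a kinase domain that dampens signals of the BMP and TGF-beta family. The promoters of both are shown because the genes moved in opposite directions in H460. They run from 250 bases before to 50 bases after the start site in the RefSeq annotation of GRCh38.p14 and are written along the strand of the gene. Capitals mark GTCT (or its complement AGAC), the core bound by SMADs, and GGCGCC, the core of GC-rich BMP response elements, the only motifs of those searched that these windows held.
SMAD6, chr15:66701986-66702285, plus strand: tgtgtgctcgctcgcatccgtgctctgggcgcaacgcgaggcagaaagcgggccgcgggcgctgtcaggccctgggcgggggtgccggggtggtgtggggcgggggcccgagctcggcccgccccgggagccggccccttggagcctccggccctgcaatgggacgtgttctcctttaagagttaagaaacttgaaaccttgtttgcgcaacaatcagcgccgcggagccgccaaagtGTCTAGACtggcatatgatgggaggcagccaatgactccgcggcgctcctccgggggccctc
BAMBI, chr10:28677271-28677570, plus strand: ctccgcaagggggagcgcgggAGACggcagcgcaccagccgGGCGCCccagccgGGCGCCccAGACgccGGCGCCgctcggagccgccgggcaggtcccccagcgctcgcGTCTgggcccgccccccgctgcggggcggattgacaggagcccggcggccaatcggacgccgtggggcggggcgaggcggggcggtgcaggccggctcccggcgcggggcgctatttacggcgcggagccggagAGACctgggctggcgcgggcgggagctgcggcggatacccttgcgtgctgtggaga
Motifs were counted on both strands, and the E-boxes CAGCTG and CACCTG were searched as well. The SMAD6 window held GTCT 2 times, the copies joined head to head as GTCTAGAC from base -12, just upstream of the start site. That joined form was looked for after the window had been seen, and 0.202% of all 35116 promoter windows held it, SMAD6 being the only member to do so. The BAMBI window held GTCT 4 times and GGCGCC 3 times, with first bases at -209, -196 and -181. GTCT was in 84% of all windows and GGCGCC in 19.22%. A match is a description of these letters and not a bound site.

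SMAD6 all but disappeared from H460. It stood at 3.50, 3.56 and 3.48 FPKM in the control libraries and at 0.124, 0.105 and 0.0473 FPKM with ISP-I, 1337 reads against 40. The mean was 38.1 times lower, the largest ratio of any member in either line. The log2 difference was -2.05 (SE 0.0826, adjusted p = 4.38e-07). It reached -4.25 with 0.1 FPKM added and -4.99 with limma voom, because the added 1 FPKM shrinks a fall to near 0. With ISP-I the mean of SMAD6 was 0.0922 FPKM, under the filter of 0.1. SMAD6 passed the H460 filter only through its control libraries, so its call there is given as a description. In A549, SMAD6 stood at 22.7, 22.9 and 23.1 FPKM in controls and at 5.64, 5.62 and 6.05 FPKM with ISP-I. These groups lay far apart as well, and the mean was 3.97 times lower (log2 difference -1.82, SE 0.0646, adjusted p = 5.98e-07). A549 with ISP-I still stood above H460 controls in every library.

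BAMBI rose in H460, from 4.13, 4.16 and 4.96 FPKM in controls to 11.4, 7.33 and 11.5 FPKM with ISP-I. The groups did not overlap, and the mean was 2.28 times the control mean (log2 difference 1.01, SE 0.173, adjusted p = 0.000881). The fold lay at the threshold and dropped below it without control library 1 (0.97), control library 2 (0.98), ISP-I library 1 (0.92) or ISP-I library 3 (0.91), with the adjusted p at 0.00584 or less. In A549, BAMBI stood at 9.69, 11.9 and 12.5 FPKM in controls and at 7.95, 7.45 and 8.21 FPKM with ISP-I. It fell there by less than a fold of 2 (log2 difference -0.47, SE 0.0993, adjusted p = 0.00397), and again the groups did not overlap. With ISP-I the means were 10.0 ± 2.36 FPKM in H460 and 7.87 ± 0.388 FPKM in A549, and the libraries of the lines overlapped.

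Of the Id genes, ID1 and ID3 carried most of the RNA in both lines. They carried most of the loss in H460, and ID1 alone did in A549. ID1 (ENSG00000125968, chr20:31605283-31606515, plus strand) and ID3 (ENSG00000117318, chr1:23557926-23559501, minus strand) are the Id genes most tightly coupled to BMP signals in many cell types. Their promoters are shown, cut and marked in the same way, because ID1 fell in both lines and ID3 by far more in H460.
ID1, chr20:31605039-31605338, plus strand: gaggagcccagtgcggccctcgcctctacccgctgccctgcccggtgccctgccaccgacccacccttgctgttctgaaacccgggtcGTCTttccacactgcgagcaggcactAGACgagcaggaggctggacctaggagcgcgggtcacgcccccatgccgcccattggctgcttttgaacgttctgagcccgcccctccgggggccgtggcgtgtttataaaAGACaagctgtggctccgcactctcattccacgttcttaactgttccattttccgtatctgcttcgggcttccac
ID3, chr1:23559452-23559751, minus strand: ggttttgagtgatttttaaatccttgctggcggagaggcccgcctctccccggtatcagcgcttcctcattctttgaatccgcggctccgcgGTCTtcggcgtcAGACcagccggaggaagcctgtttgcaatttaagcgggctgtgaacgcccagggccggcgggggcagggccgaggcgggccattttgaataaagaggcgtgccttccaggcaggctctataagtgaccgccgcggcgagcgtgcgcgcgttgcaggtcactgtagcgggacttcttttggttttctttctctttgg
The ID1 window held GTCT 3 times and the ID3 window 2 times, against a median of 2 over all windows. Neither held GGCGCC or an E-box, which says only that these letters are not in these 300 bases. Over the 9 members with a RefSeq window (BMP2 had none), GGCGCC was in those of BAMBI, BMPR2 and BMP4. All 11 windows of these members (BMP4 had 3) had more CpG dinucleotides than the median of 14, from 15 in BMPR1A to 47 in BAMBI, and 9 of the 11 had a GC content above the median of 58.7%.

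ID1 stood at 280.4, 316.7 and 251.4 FPKM in H460 controls and at 17.5, 11.8 and 20.6 FPKM with ISP-I. In A549 it stood at 194.2, 214.7 and 204.9 FPKM in controls and at 48.0, 47.7 and 37.0 FPKM with ISP-I. Every treated library lay far below every control library of its line, and the mean was 17.0 times lower in H460 and 4.62 times lower in A549. The log2 difference was -4.04 (SE 0.199, adjusted p = 1.06e-06) in H460 and -2.19 (SE 0.107, adjusted p = 2.16e-06) in A549. By absolute size it ranked 47 among all 13423 genes tested in H460 and 67 among all 13705 in A549.

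ID3 stood at 174.9, 212.8 and 187.8 FPKM in H460 controls and at 21.2, 21.2 and 38.2 FPKM with ISP-I. The mean was 7.14 times lower, with no overlap (log2 difference -2.84, SE 0.225, adjusted p = 9.78e-06). A549 held 141.4, 129.6 and 195.2 FPKM in controls and 120.9, 131.2 and 116.2 FPKM with ISP-I, groups that overlapped. The A549 difference was -0.32 (95% interval -0.65 to 0.015, adjusted p = 0.0923), and it passed the test with quantile normalization (-0.44, adjusted p = 0.00775) and without control library 2 (-0.44, adjusted p = 0.0305).

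ID2 (ENSG00000115738, chr2:8678845-8684461, plus strand), is an Id gene expressed widely in epithelial cells. In A549 it fell by less than a fold of 2, from 32.9, 29.3 and 34.5 FPKM to 18.1, 18.9 and 19.9 FPKM (log2 difference -0.73, SE 0.0792, adjusted p = 0.000113). In H460 it stood at 17.6, 14.9 and 20.0 FPKM in controls and at 10.0, 11.2 and 17.7 FPKM with ISP-I. The groups overlapped through ISP-I library 3 (log2 difference -0.43, 95% interval -0.90 to 0.039, adjusted p = 0.0909), and without that library the difference was -0.66 (adjusted p = 0.00167). The antisense gene ID2-AS1 shares exonic sequence with ID2, and a near copy, ID2B, is listed among human genes, so that some reads may belong to these.

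ID4 (ENSG00000172201, chr6:19837370-19842197, plus strand), the Id gene best known from neural and mammary cells, was low in all groups. It stood at 0.987, 0.697 and 1.77 FPKM in H460 controls and at 0.361, 0.527 and 0.609 FPKM with ISP-I, just without overlap (log2 difference -0.49, SE 0.167, adjusted p = 0.0272). The adjusted p went above 0.05 without control library 3 (0.0535), which held the highest value, without ISP-I library 1 (0.0982), with quantile normalization (0.0674), median-of-ratios scaling (0.0632) or limma voom (0.0685), and with no filter on low values (0.115). In A549 it ranged from 0.402 to 0.527 FPKM in controls and from 0.252 to 0.484 FPKM with ISP-I, overlapping groups of 81 and 66 reads in all (adjusted p = 0.276).

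The makeup of the Id sum changed with its size. ID1 made up 57.3% ± 2.43 (SD, n = 3) of the Id sum in H460 controls and 29.6% ± 5.27 with ISP-I, and 52.4% ± 5.14 and 23.7% ± 2.14 in A549. ID3 went from 38.9% to 46.7% of the sum in H460 and from 39.3% to 65.9% in A549. ID2 held 3.59% in H460 controls and 22.8% with ISP-I, against 8.23% and 10.2% in A549. ID1 was thus the leading Id gene of the controls in both lines by its mean, and ID3 that of the treated cells.

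The lines already differed before treatment. Of the 10 members, 3 were called lower in H460 controls than in A549 controls and none higher, where 8.78% of 13532 genes tested were called lower and 5.64% higher. These were BMP4 (log2 difference -3.20, SE 0.0918, adjusted p = 2.17e-08), SMAD6 (-2.41, SE 0.0772, adjusted p = 3.83e-08) and BAMBI (-1.19, SE 0.117, adjusted p = 3.96e-05). BMP4 averaged 0.0217 FPKM in H460 controls and passed this filter only through the A549 controls, so its call is given as a description. ID1 (0.46, adjusted p = 0.00698), BMP2 (0.66, adjusted p = 0.000141) and ID4 (0.51, adjusted p = 0.0223) were higher in H460 by less than a fold of 2 on this scale, and ID2 (-0.85, adjusted p = 0.000324) and BMPR2 (-0.79, adjusted p = 0.00116) lower. For ID3 (0.32, 95% interval -0.042 to 0.68) and BMPR1A (-0.32, 95% interval -0.64 to 0.0093) the control libraries of the lines overlapped.

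Whether the response differed between the lines was tested over all 12 libraries at once by an interaction term, the H460 difference minus the A549 difference. Of the 10 members, 4 were called, 2 in each direction, where 5.93% of 13953 genes tested were called higher and 10.1% lower. ID3 (-2.52, SE 0.295, adjusted p = 2.11e-05) and ID1 (-1.84, SE 0.244, adjusted p = 5.58e-05) were lowered more in H460. BAMBI (1.48, SE 0.210, adjusted p = 9.59e-05) moved in opposite directions in the lines. That call was lost when the difference was tested against 2-fold with limma treat (adjusted p = 0.291). BMP4 (1.79, SE 0.105, adjusted p = 1.01e-07) fell in A549, with 3 reads in all in H460 controls. BMP4 passed the filter of this test only through its A549 libraries. It had almost no RNA to lose in H460, so its call is given as a description. BMPR1A was also lowered more in H460, by less than a fold of 2 (-0.80, adjusted p = 0.00613). BMP2 passed on this scale (0.54, adjusted p = 0.014) and not with 0.1 FPKM added (0.066, adjusted p = 0.836) or with limma voom (0.20, adjusted p = 0.705). The reverse held for SMAD6, which missed the threshold on this scale (-0.23, adjusted p = 0.0738) and was called with 0.1 FPKM added (-2.28, adjusted p = 2.31e-06) and with limma voom (-2.97, adjusted p = 3.72e-06). ID2 (0.30, 95% interval -0.22 to 0.83), ID4 (-0.39, -0.83 to 0.053) and BMPR2 (0.26, -0.19 to 0.70) did not pass the test of the difference.

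Ordered by mean level, ID1 ran from H460 controls through A549 controls and A549 with ISP-I to H460 with ISP-I, each group clear of the next. ID3 followed the same order of means, but H460 controls overlapped A549 controls, and these overlapped A549 with ISP-I. ID2 was highest in A549 controls, and A549 with ISP-I, H460 controls and H460 with ISP-I overlapped in turn. SMAD6 and BMP4 were highest in A549 controls and next in A549 with ISP-I, with all neighbouring groups apart. BMP2 ran from H460 with ISP-I through A549 with ISP-I and H460 controls to A549 controls, also with all neighbours apart.

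The genes whose levels followed the members most closely were found by Pearson's r of log2(FPKM + 1) over the 12 libraries, among the genes averaging 5 FPKM or more (6649 for each member but BMP4, 6650 for it), as a description. ID1 was followed by USB1 (0.994), CHAF1B (0.992) and KIF20A (0.991). For ID3 these were NDUFV1 (0.997), G6PC3 (0.994) and COPS7A (0.991), and for SMAD6 they were CELSR1 (0.997), SLC7A5 (0.997) and AOPEP (0.996). BMP4 was followed by TM4SF4 (0.998), GPX2 (0.994) and CEACAM6 (0.993), genes with means from 22.4 to 73.8 FPKM in A549 controls and 0.602 FPKM or less in H460. ID2 had weaker company in CFL1 (0.948), TMEM50A (0.942) and RRAS (0.935). The 12 points are 4 groups of 3 libraries, so these values mostly compare group means.

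The rest of the pathway was read from 6 lists of 66 further genes, arranged by role. In H460, 47 were tested, of which 10 were called higher and 6 lower, where 10.5% of all genes tested were called higher and 15.2% lower, with a median log2 difference of 0.18 beside -0.15 over all genes. In A549, 46 were tested, and 1 was called higher and 1 lower (4.2% and 3.51% of all genes), with a median of 0.033 beside 0.020 over all genes. At any fold change 21 rose and 17 fell in H460, where 27.6% of all genes rose and 41.5% fell. In A549, 15 rose and 14 fell, where 30.5% of all genes rose and 27% fell, so that the counts there lie near the background.

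Among the other ligand genes, 6 of 12 passed the filter in H460 and 5 in A549. BMP6, a ligand known for its part in iron control, fell in H460 from 10.0 ± 0.47 to 3.94 ± 0.36 FPKM (log2 difference -1.16, adjusted p = 2.8e-05), a fold lost with median-of-ratios scaling (-0.93). In A549 BMP6 fell by less than a fold of 2 (-0.37, adjusted p = 0.0367), a fall that missed the threshold in 5 of 12 alternatives. It was the only one of these genes called in either line. The shares of all genes called higher and lower were 10.5% and 15.2% in H460 and 4.2% and 3.51% in A549.

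The other receptors and co-receptors split in H460, where 2 were called higher and 1 lower of 7 tested. Of all genes tested there, 10.5% were called higher and 15.2% lower. ACVR1, a type I receptor for several BMPs, rose from 5.07 ± 0.24 to 24.5 ± 3.8 FPKM (log2 difference 2.06, adjusted p = 3.68e-06). BMPR1B, the closest relative of BMPR1A, had 9 reads in all in H460 controls and 421 with ISP-I, or 0.0310 and 1.30 FPKM. It passed the filter only through its ISP-I libraries, so its call is given as a description. ENG, a co-receptor best known from endothelium, fell from 20.5 ± 2.0 to 2.81 ± 0.48 FPKM (-2.50, adjusted p = 1.4e-06). In A549 none of 8 was called, where 4.2% of all genes were called higher and 3.51% lower. ACVR1 rose slightly there (0.32, adjusted p = 0.0364). That rise missed the threshold in 4 of 13 alternatives: the adjusted p was 0.13 when ISP-I library 1 was left out, 0.0864 for ISP-I library 2 and 0.0996 for control library 2, and the test without a filter on low values missed it as well. The co-receptor gene RGMA had 6 reads in all in A549 controls and 452 with ISP-I, or 0.0105 and 0.761 FPKM, and it too passed the filter only through its ISP-I libraries. The differences of ACVR1 (1.74, adjusted p = 5.85e-06), BMPR1B (1.14, adjusted p = 2.93e-05) and ENG (-2.52, adjusted p = 1.27e-07) between the lines were called in the interaction. BMPR1A and ACVR1, both type I receptor genes, therefore moved in opposite directions in H460.

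Of the SMADs and their regulators, 2 were called higher and 1 lower of 11 in H460 and none of 10 in A549. The shares of all genes called higher and lower were 10.5% and 15.2% in H460 and 4.2% and 3.51% in A549. SMURF1, a ubiquitin ligase for SMAD1 and SMAD5, rose in H460 from 9.19 ± 0.42 to 26.9 ± 2.3 FPKM (log2 difference 1.45, adjusted p = 8.61e-06). The corepressor gene SKIL rose from 1.58 to 7.54 FPKM (1.69, adjusted p = 0.0001), and its relative SKI fell from 18.5 to 7.79 FPKM (-1.16, adjusted p = 6.65e-05), a fold lost with median-of-ratios scaling (-0.91) and limma voom (-0.98). SKI fell in A549 as well, by less than a fold of 2 (-0.48, adjusted p = 0.00458). The genes of the SMADs that carry the BMP signal did not move together. SMAD5 rose by less than a fold of 2 in both lines (0.48, adjusted p = 0.038, and 0.72, adjusted p = 0.000462). SMAD1 fell slightly in H460 (-0.29, adjusted p = 0.0387) and did not pass the test in A549 (0.070, adjusted p = 0.547). SMAD9 fell in H460 from 0.966 to 0.201 FPKM (-0.71, adjusted p = 0.000165) and was under the filter in A549. SMAD4, the shared partner, did not pass the test in either (0.23, adjusted p = 0.073, and 0.16, adjusted p = 0.115). SMAD7, the other inhibitory SMAD, stood at 1.37 and 1.44 FPKM in H460 and fell in A549 from 10.7 to 7.08 FPKM (-0.54, adjusted p = 0.00433). TGIF1, a corepressor, rose in H460 (0.67, adjusted p = 0.000829) and fell in A549 (-0.51, adjusted p = 0.000297), a difference called in the interaction (1.18, adjusted p = 5.13e-06).

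Secreted antagonists and binding proteins, the longest list with 17 genes, gave the most calls. In H460, 3 of 9 tested were called higher and 2 lower, where 10.5% and 15.2% of all genes were. In A549, 1 of 10 was called in each direction, where 4.2% of all genes were called higher and 3.51% lower. GREM1, an antagonist of BMP2 and BMP4, had 0 to 3 reads in each H460 library and rose in A549 from 0.657 ± 0.16 to 3.99 ± 0.079 FPKM (1.59, adjusted p = 4.45e-06). NBL1, of the same family as GREM1, fell in both lines, from 6.90 to 1.29 FPKM in H460 (-1.80, adjusted p = 1.27e-05) and from 9.55 to 3.69 FPKM in A549 (-1.16, adjusted p = 8.55e-05). FSTL1 also fell in H460 (-1.51, adjusted p = 4.5e-06). BMPER, which binds BMPs outside the cell, rose from 1.63 to 7.69 FPKM in H460 (1.72, adjusted p = 7.22e-06) and from 1.01 to 2.48 FPKM in A549 (0.79, adjusted p = 4.04e-05). FST and FSTL3, which bind activins more tightly than BMPs, rose in H460 (1.22, adjusted p = 2.6e-05, and 1.47, adjusted p = 0.000206). FSTL3 rose in A549 as well, by less than a fold of 2 (0.60, adjusted p = 0.000851), where FST did not pass the test (adjusted p = 0.0556). NOG, the antagonist noggin, was low, at 0.617 and 0.425 FPKM in H460 (adjusted p = 0.4), and rose in A549 from 1.47 to 2.18 FPKM (0.36, adjusted p = 0.0226).

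**Figure D4:**
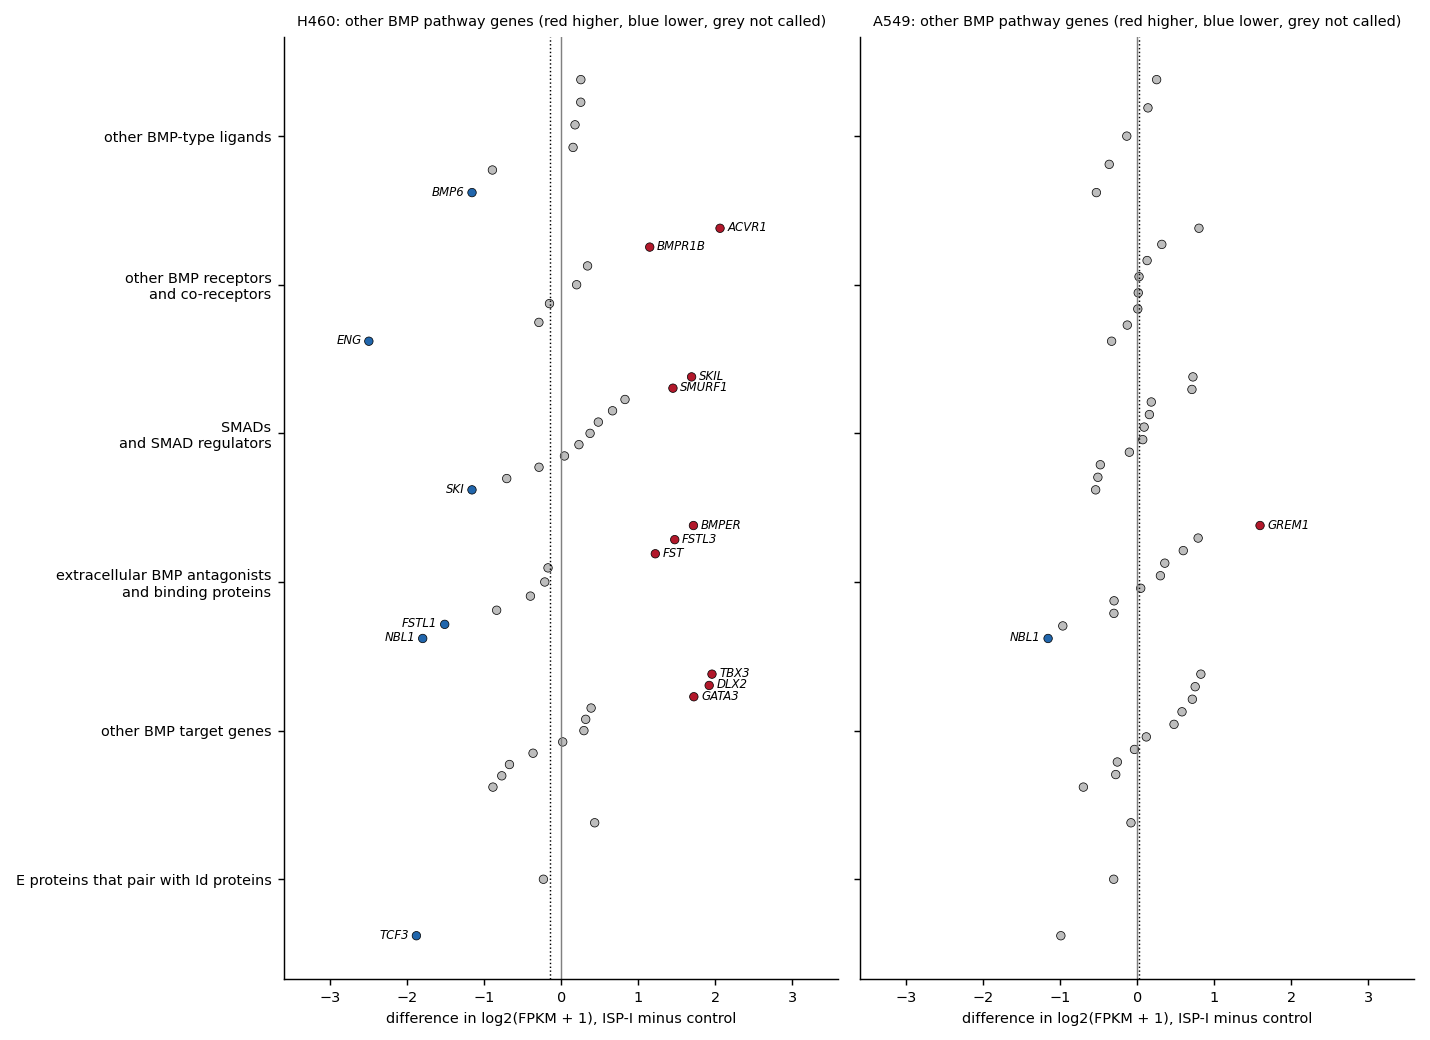
Difference in log2(FPKM + 1) between ISP-I and control libraries (horizontal axis) for the tested genes of 6 further BMP pathway lists (rows), in H460 (left, 47 genes) and A549 (right, 46 genes). Each point is a gene, red if called higher, blue if called lower, grey if not called, and the dotted line is the median of all genes. H460 has 10 red and 6 blue points and A549 has 1 of each, GREM1 and NBL1.

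The other BMP target genes moved in both directions. In H460, 3 of 11 tested were called higher and none lower, where 10.5% and 15.2% of all genes were. At any fold change 6 rose and 4 fell, where 27.6% of all genes rose and 41.5% fell. In A549 none of 10 was called, where 4.2% of all genes were called higher and 3.51% lower. There 5 rose and 3 fell at any fold change, where 30.5% of all genes rose and 27% fell. DLX2, a homeobox gene, rose in H460 from 3.31 ± 0.69 to 15.2 ± 0.73 FPKM (log2 difference 1.92, adjusted p = 6.17e-06) and the zinc finger gene GATA3 from 0.609 to 4.32 FPKM (1.72, adjusted p = 2.64e-06). DLX2 and GATA3 rose in A549 as well, by less than a fold of 2 on this scale (0.48, adjusted p = 0.00116, and 0.83, adjusted p = 0.000151). They passed that fold in A549 with 0.1 FPKM added and with limma voom. TBX3, a T-box repressor gene, rose in H460 from 4.39 ± 0.22 to 20.0 ± 1.0 FPKM (1.96, adjusted p = 1.45e-06) and fell in A549 from 9.32 ± 0.64 to 5.36 ± 0.53 FPKM (-0.70, adjusted p = 0.000288). That difference between the lines was called in the interaction (2.66, adjusted p = 1.61e-08). ATOH8 moved the way of ID1 in both lines, from 301 reads in all to 4 in H460 (-0.77, adjusted p = 1.38e-05) and from 124 to 31 in A549 (-0.28, adjusted p = 0.00173). The differences are small on this scale because its controls averaged 0.726 and 0.305 FPKM. Its means with ISP-I, 0.00926 FPKM in H460 and 0.0746 FPKM in A549, lay under the filter of 0.1. ATOH8 passed the filter only through its control libraries, so these values are given as a description. MSX2 (-0.89, adjusted p = 0.000136), GATA2 (-0.67, adjusted p = 0.00109) and UNC5B (-0.37, adjusted p = 0.0197) fell in H460 by less than a fold of 2. GATA2 fell in A549 as well (-0.26, adjusted p = 0.033), where UNC5B rose (0.58, adjusted p = 0.000759). MSX1 rose in both lines (0.39, adjusted p = 0.0289, and 0.75, adjusted p = 0.000359).

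The E proteins are the partners that Id proteins hold. TCF3, the most abundant of the 3 E protein genes in H460 controls, fell along with ID1 in both lines. It went from 29.0 ± 4.1 to 7.12 ± 0.79 FPKM in H460 (log2 difference -1.88, adjusted p = 6.71e-06) and from 22.3 ± 0.83 to 10.7 ± 0.92 FPKM in A549 (-0.99, adjusted p = 2.04e-05), where the fold of 2 was just missed. It passed that fold in A549 with 0.1 FPKM added (-1.05), quantile normalization (-1.03), median-of-ratios scaling (-1.02), limma voom (-1.09), and without control library 1 (-1.02) or ISP-I library 3 (-1.06). TCF4 was low in both lines and fell by less than that (-0.23, adjusted p = 0.0125, and -0.31, adjusted p = 0.00298). In H460 its mean with ISP-I was 0.0962 FPKM, and it passed the filter there only through its controls. TCF12 did not pass the test in either line (0.43, adjusted p = 0.0514, and -0.083, adjusted p = 0.571).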

How the data were processed

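Libraries of H460 and A549, control or ISP-I (10 µM, 48 h), were analysed, 3 per group. Per the submitters' processing notes and the study's methods, the authors used FastQC, HISAT2 (hg38) and HTSeq 0.9.1 on 150 bp read pairs and deposited FPKM. The annotation version and strand setting are not given in the sources used here. The deposited table has another column, gene length in bases, which is not a measurement of a sample. It has 19977 lines, of which 4 hold fragments of a broken annotation field and were not used. FPKM times length gave whole reads for 100% of values (tolerance 0.05 reads).

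Columns name line and treatment, which set the groups, and libraries were numbered in column order within a group. The study's statistics describe 3 independent experiments in general, and its RNA-seq methods name 3 replicates per group without saying whether these were separate cultures, so p values measure the spread between these libraries, which may be technical. Within each line, and between untreated lines, log2(FPKM + 1) was compared with limma 3.58.1 (R 4.3.3, eBayes with trend, mean FPKM 0.1 or more) and Benjamini-Hochberg adjustment over all genes tested. The interaction used 12 libraries. The fits were tested on simulated data.

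The members, lists and tests were chosen with earlier results of these data known. By rule, all 10 members were described in every library, called genes of the lists could be named, and likeness was sought for ID1, ID2, ID3, BMP4 and SMAD6. Other list genes were named after their values were seen, and 1 listed gene is not reported here. Alternatives were 0.1 as pseudocount, a filter at 1 FPKM or none, quantile normalization, median-of-ratios scaling, limma voom on recovered reads (10 or more in 3 libraries), limma treat against 2-fold, other thresholds, a joint fit, and leaving out each library. Promoters were from RefSeq (GRCh38.p14) and overlapping genes from GENCODE v44. Python 3.11.15 with pandas 2.3.3 and numpy 2.4.6 prepared the tables.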

Additional observations from a re-analysis of the deposited data

Results flagged for a closer look

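The change with ISP-I differed between the lines for 4 genes, by the limma test of the interaction over 12 libraries (H460 difference minus A549 difference on the log2 scale). ID3 (-2.52) and ID1 (-1.84) were lowered more in H460, where 3 of 3 treated libraries lay below every control for both genes. In A549 the same held for ID1, while the ID3 groups overlapped. BAMBI (1.48) was higher in 3 of 3 treated H460 libraries than in any H460 control and lower in 3 of 3 treated A549 libraries than in any A549 control. Its call was lost with limma treat against 2-fold. BMP4 (1.79) was lower in 3 of 3 treated A549 libraries than in any A549 control, while H460 controls held 3 reads of it in all. BMP4 passed the filter of that test only through its A549 libraries, so its call is given as a description.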

How the results depend on the processing

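The 1282 gene values under alternatives kept their direction in all but 10 cases, and 25 of them lost and 20 gained an adjusted p under 0.05. No member changed direction. The reversals were in A549, in genes not called there: BMPR1B (-0.010 with quantile normalization, -0.019 with median-of-ratios scaling, -0.028 with limma voom, and -0.062 to 0.046 with a library left out), ENG (-0.021 with quantile normalization, and -0.028 to 0.077 with a library left out) and SKIL (-0.36 to 0.035 with a library left out). The cause was not tested. The 6 members called in H460 were 5 with quantile normalization or median-of-ratios scaling, 4 with limma treat and 4 to 6 when a library was left out. Limma treat lost BAMBI and BMPR1A there. The 3 called in A549 were 7 at any fold change and 3 to 4 with a library left out. The 4 called in the interaction were 3 with limma treat, which lost BAMBI, 5 with limma voom, 6 with 0.1 FPKM added and 4 without any 1 library. The 3 called between untreated lines were 8 at any fold change, 6 with 0.1 FPKM added, 6 with limma voom and 3 without any 1 library. The 16 calls of the pathway lists in H460 were 27 with limma voom, 38 at any fold change, 16 without any 1 library and 11 with limma treat, which lost BMP6, BMPR1B, SKI, FST and FSTL3. The 2 calls in A549 were 12 with 0.1 FPKM added, 14 with limma voom, 4 with quantile normalization, 1 with limma treat, 29 at any fold change and 2 to 3 with a library left out. A smaller pseudocount and voom shrink low genes less by construction. Calls over all genes grew with limma voom as well. In H460 they went from 1409 higher and 2047 lower of 13423 genes to 3056 and 2769 of 12939. In A549 they went from 575 and 481 of 13705 to 1316 and 1277 of 13138. Between untreated lines they went from 763 and 1188 of 13532 to 1536 and 2244 of 13056. At any fold change, 27.6% of all genes rose and 41.5% fell in H460, and 30.5% and 27% in A549. Median-of-ratios scaling moved the share of called genes that were higher from 40.8% to 56.5% in H460, from 54.5% to 50.6% in A549 and from 37% to 61.1% in the interaction. No paired analysis was possible because the columns carry the line and the treatment but not the replicate numbers of the labels. Depth limits what can be read from BMP4 in H460, ID4 and the low ligand and antagonist genes.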
